A study of Mus musculus with 30 samples.

Results

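Spon1, Smoc1, Thbs1 and Thbs2 encode secreted proteins of the extracellular matrix, and their RNA was followed in the colon of 30 mice. They are 4 of the 46078 genes counted, they were matched by gene name and gene ID, and each had counts in 30 of 30 libraries. The genes were chosen by their fold changes and were picked with the comparison of estradiol-treated and vehicle-treated HFD males in view, in which the log2 fold changes of Spon1 and Smoc1 were among the highest of all genes. For the 4 genes, that comparison and the comparisons that share a group with it are therefore a description, with no p-value printed and nothing read from a threshold, while other genes are given with the fitted test. Among the 4 genes, Spon1, Smoc1 and Thbs1 were higher on average with estradiol than with vehicle in HFD males, whereas Thbs2 was not. The difference was smaller for Thbs1, where 3 of 6 estradiol-treated males lay above all vehicle-treated HFD males. A description as estradiol-raised genes thus did not hold for Thbs2.

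The mice were C57BL/6J animals, 5 to 6 weeks old when they entered the study, and each library came from the colon of 1 animal. There were 6 females and 6 males on control diet (CD F and CD M), 6 females and 6 males on high fat diet (HFD F and HFD M) and 6 HFD males given 17β-estradiol (HFD+E2 M), all fed for 13 weeks. E2 was injected at 0.5 mg/kg body weight, 9 times over the last 3 weeks, and the other 4 groups received vehicle by the same route. Females kept their ovaries, and neither females nor CD males with E2 were among the libraries, so an effect of E2 could be described in HFD males only.

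Matricellular proteins are secreted into the matrix, where they tune how cells attach, respond to growth factors and organise fibres, rather than bear load themselves. The thrombospondins Thbs1 and Thbs2 are trimers that bind CD36, CD47, integrins and proteoglycans, and Thbs1 can in addition release TGF-β from its latent form. Spon1 encodes F-spondin, which shares the thrombospondin type 1 repeat with them and is best known for guiding axons in the floor plate of the spinal cord. Smoc1 belongs to the SPARC family of calcium-binding proteins, sits in basement membranes and can restrain BMP signaling. In the wall of the gut such proteins come mainly from fibroblasts, smooth muscle and endothelium, with platelets as a further source of Thbs1.

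On the GRCm38 genome, Spon1 (ENSMUSG00000038156) lies on the plus strand at chr7:113765998-114043370, and Smoc1 (ENSMUSG00000021136) on the plus strand at chr12:81026808-81186414. Thbs1 (ENSMUSG00000040152) lies on the plus strand at chr2:118111876-118127133, and Thbs2 (ENSMUSG00000023885) on the minus strand at chr17:14665500-14694262. The longest coding sequences in GENCODE M21 hold 807 codons in Spon1, 463 in Smoc1, 1171 in Thbs1 and 1172 in Thbs2. The microRNA gene Mir3067 lies inside Smoc1 on the same strand, and the non-coding gene Gm29233 lies opposite Thbs1 and had 0 counts in every library.

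A sequence feature joins 3 of the 4 genes, which are known to carry the thrombospondin type 1 repeat. It is the run of codons for tryptophan, serine, any residue and tryptophan, which is typical of this repeat but does not define it. Matches can therefore miss a repeat or lie outside one. This run was searched in frame, on the coding strand only, as the codon TGG, a serine codon (TCN, AGC or AGT), any codon (NNN) and TGG. Spon1 held 3 matches, Thbs1 held 5, Thbs2 held 5 and Smoc1 held 0, while 0.913% of 21901 coding genes held at least 1 match and 0.0639% at least 3. In Thbs1 and Thbs2 some matches overlap, because a tryptophan that ends one match opens the next. The stretches below are from exons, with the match in capitals and positions counted from 1 at the start codon.
Spon1, coding bases 1342 to 1353, exon 11, chr7:114031788-114031817, plus strand: tactccaacTGGTCCCCATGGtcggcctgc
Spon1, coding bases 1858 to 1869, exon 14, chr7:114034172-114034201, plus strand: ctgtctcccTGGTCCGAGTGGagcgactgt
Spon1, coding bases 2020 to 2031, exon 15, chr7:114036563-114036592, plus strand: ctcagcgagTGGTCCCAGTGGtctgaatgt
Thbs1, coding bases 1147 to 1158, exon 8, chr2:118117498-118117527, plus strand: gacgatggcTGGTCTCCCTGGtctgagtgg
Thbs2, coding bases 1150 to 1161, exon 8, chr17:14681795-14681824, minus strand: gatgagggcTGGTCTCCGTGGgcagagtgg
Thbs1, coding bases 1315 to 1326, exon 9, chr2:118118170-118118199, plus strand: gatggtggcTGGAGTCACTGGtctccatgg
Thbs2, coding bases 1318 to 1329, exon 9, chr17:14681378-14681407, minus strand: aatggaggcTGGAGTCACTGGtcaccctgg
The Thbs1 and Thbs2 stretches stand in exons of the same number, at coding positions only 3 bases apart. Over the whole coding sequence the longest run that Thbs1 and Thbs2 share without a mismatch was 26 bases, ggagaccgctgtgacaactgccccta, and every other pair of the 4 genes shared at most 13 bases. The reads were longer than these runs.

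The libraries held between 8667177 and 17243712 counts on genes (median 11530916), and mitochondrial genes took 26.1% to 38.0% of them. Markers of colon epithelium were present in every group, with a summed level of the 10 listed genes between 2542 and 4545 TPM over the libraries. Genes of squamous epithelium, which the colon lacks and the anal canal has, stood apart in some libraries. Their mean log2 CPM (counts scaled to the total of each library, as adjusted by TMM normalization) served as a score. The score was above 0 in 4 HFD females (replicates 1, 3, 4 and 5) and 2 HFD males (replicates 2 and 4). No other library had a score above 0. Over all 12 listed squamous genes the sum ranged from 1.99 to 1342 TPM in HFD females and from 1.39 to 425.1 TPM in HFD males. It ranged from 1.83 to 5.81 TPM in CD females, from 2.69 to 13.5 TPM in CD males and from 1.34 to 5.76 TPM in HFD+E2 males. The listed genes Dsg3 and Ivl were at 0 in every CD female and HFD+E2 male. Of the 12 listed genes, 9 were above 0 in at least 1 CD female and 10 in at least 1 HFD+E2 male. Most fold changes of the 4 genes that involve the HFD groups, and some counts over gene lists, are therefore given with and without these 6 libraries. Of the HFD females only replicates 2 and 6 are then left, so those values rest on few animals.

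Levels are TPM, which scales for gene length and sets each library to the same total, and are given as mean ± SD over 6 animals. Spon1 and Smoc1 were low, at 1.81 to 3.90 TPM and 0.483 to 2.03 TPM over the group means. Thbs1 and Thbs2 were more abundant, at 11.2 to 17.7 TPM and 8.70 to 16.2 TPM. The counts behind them were 63 to 425 reads per library for Spon1, 8 to 129 for Smoc1, 327 to 1365 for Thbs1 and 301 to 1514 for Thbs2, so that Smoc1 had the least precise values.

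**Figure D1:**
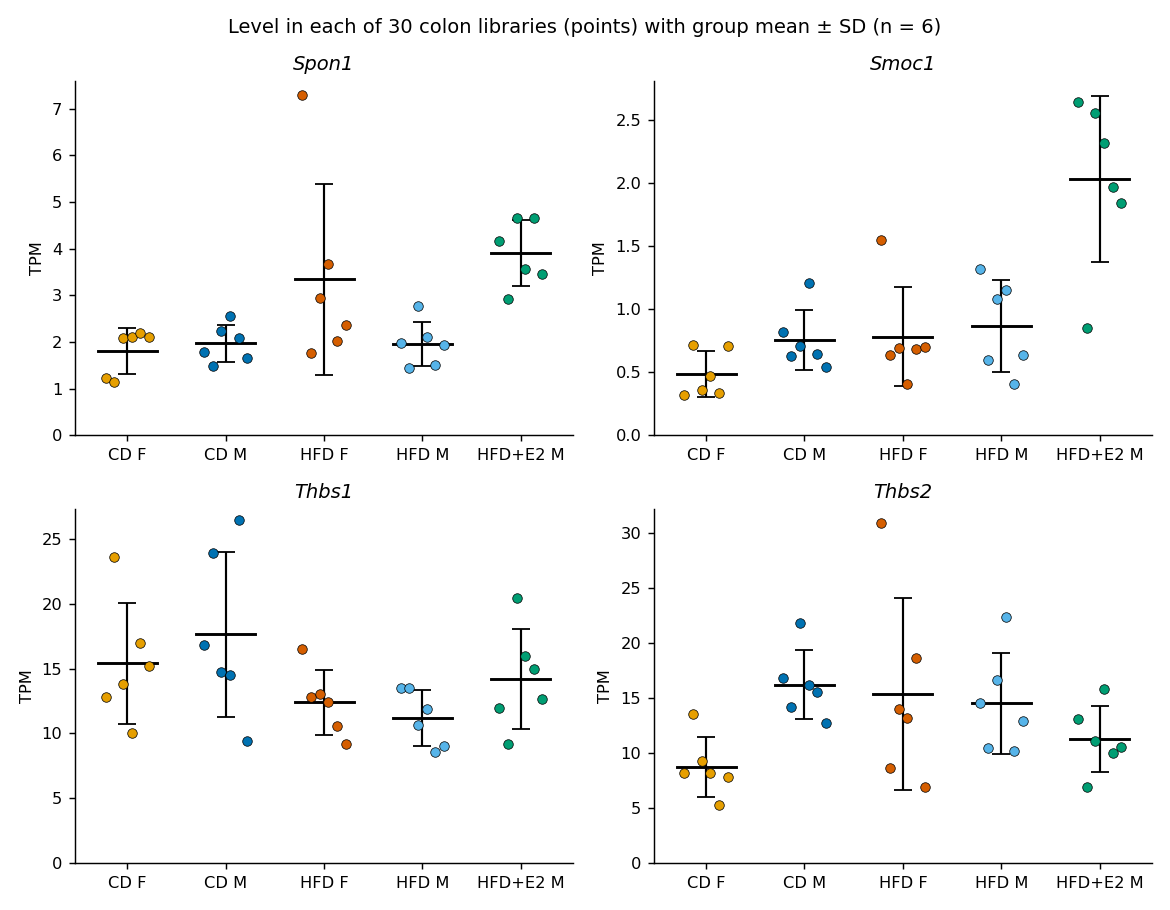
Level (TPM, vertical axis) of each gene in every library by group, with points for animals, a horizontal bar for the mean and error bars for the SD over 6 animals. Spon1 lies above all HFD and CD males in the 6 HFD+E2 males, Smoc1 does so in 5 of 6, and the thrombospondins overlap between HFD+E2 and HFD males.

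Spon1, the F-spondin gene, had a mean level in HFD+E2 males that was 1.995 times that of HFD males and 1.98 times that of CD males. The 6 HFD+E2 males had a lowest value of 2.92, a median of 3.86 and a highest value of 4.66 TPM (mean 3.90 ± 0.704, SD, n = 6). HFD males ran from 1.45 over a median of 1.96 to 2.77 TPM (mean 1.96 ± 0.479, SD, n = 6). CD males ran from 1.48 over 1.94 to 2.56 TPM (mean 1.97 ± 0.40, SD, n = 6). No vehicle-treated male reached the lowest HFD+E2 male. CD females, at 1.13, 2.10 and 2.19 TPM (mean 1.81 ± 0.487, SD, n = 6), lay below the HFD+E2 males as well.

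HFD females were the exception for Spon1. Their values ran from 1.76 over a median of 2.65 to 7.28 TPM (mean 3.34 ± 2.05, SD, n = 6), and the highest of all 30 libraries was HFD female 1, which also had a high squamous score. The order of group means was HFD+E2 M, HFD F, CD M, HFD M and CD F. No neighbours in this order differed by more than their pooled SD.

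Smoc1, the BMP-restraining SPARC family gene, showed the largest ratio of the 4 genes. HFD+E2 males ran from 0.852 over a median of 2.14 to 2.64 TPM (mean 2.03 ± 0.657, SD, n = 6). HFD males ran from 0.409 over 0.853 to 1.32 TPM (mean 0.863 ± 0.364, SD, n = 6), so that the mean was 2.35 times as high with E2. Of the HFD+E2 males, 5 of 6 lay above every HFD male, and replicate 2 lay among the vehicle-treated males.

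In the other groups Smoc1 was lower. CD males had 0.543, 0.675 and 1.205 TPM as lowest, median and highest value (mean 0.758 ± 0.238, SD, n = 6), and HFD females had 0.409, 0.688 and 1.55 TPM (mean 0.779 ± 0.392, SD, n = 6). CD females were lowest, from 0.317 over 0.413 to 0.715 TPM (mean 0.483 ± 0.183, SD, n = 6). The order of means was HFD+E2 M, HFD M, HFD F, CD M and CD F. The step from HFD+E2 M to HFD M and the step from CD M to CD F exceeded the pooled SD, and the 2 steps between them did not.

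Thbs1, the TGF-β-releasing thrombospondin, overlapped between all groups. CD males ran from 9.43 over 15.8 to 26.4 TPM (mean 17.7 ± 6.37, SD, n = 6), HFD males from 8.53 over 11.3 to 13.5 TPM (mean 11.2 ± 2.16, SD, n = 6) and HFD+E2 males from 9.18 over 13.8 to 20.5 TPM (mean 14.2 ± 3.88, SD, n = 6). Of the HFD+E2 males, 3 of 6 lay above all HFD males. Females ran from 9.99 to 23.6 TPM on CD (mean 15.4 ± 4.67, SD, n = 6) and from 9.16 to 16.5 TPM on HFD (mean 12.4 ± 2.50, SD, n = 6). No neighbours in the order CD M, CD F, HFD+E2 M, HFD F and HFD M differed by more than their pooled SD.

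Thbs2, which helps collagen fibrils assemble, was lowest in CD females. Their values ran from 5.31 over a median of 8.18 to 13.6 TPM (mean 8.70 ± 2.71, SD, n = 6), and CD males ran from 12.7 over 15.8 to 21.8 TPM (mean 16.2 ± 3.14, SD, n = 6). A single CD female lay above the lowest CD male. HFD females spread widest, from 6.87 over 13.6 to 30.9 TPM (mean 15.4 ± 8.69, SD, n = 6), while HFD males (mean 14.5 ± 4.58, SD, n = 6) and HFD+E2 males (mean 11.2 ± 3.01, SD, n = 6) overlapped. As for Thbs1, no neighbours in the order CD M, HFD F, HFD M, HFD+E2 M and CD F differed by more than their pooled SD.

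The comparison of HFD+E2 with HFD males asks what estradiol does in obese males, and it is the one that chose the genes. On the log2 scale of the fitted counts, the difference was 1.28 ± 0.15 (SE) for Spon1, 1.33 ± 0.26 (SE) for Smoc1, 0.51 ± 0.13 (SE) for Thbs1 and -0.22 ± 0.18 (SE) for Thbs2. Of 15010 genes, 12 had a larger increase than Spon1 and 10 a larger increase than Smoc1. Spon1, Smoc1 and Thbs1 passed the threshold of the study upwards (an unadjusted p under 0.05 together with an absolute log2 fold change above 0.4), which 5.87% of all genes passed, 2.63% upwards and 3.24% downwards. Spon1 was the single gene, 0.00666% of those tested, with a Benjamini-Hochberg adjusted p under 0.05, and nothing is read from this because the gene was chosen in this comparison. Its values in the 2 groups did not overlap in log2 CPM, which held for 0.213% of genes in this direction.

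The differences of Spon1, Smoc1 and Thbs1 moved by less than their standard errors when the libraries with squamous genes were left out. Without HFD males 2 and 4 they were 1.28 ± 0.19, 1.37 ± 0.29 and 0.53 ± 0.15 (SE), although no gene then passed the adjusted threshold. With each single library left out, Spon1 stayed between 1.16 and 1.36, Smoc1 between 1.198 and 1.46 and Thbs1 between 0.43 and 0.58. On log2(TPM + 0.1) the median of all genes was itself -0.16 in this comparison, and Spon1 was at 0.97. Thbs1 was at 0.32 on that scale and at 0.30 on log2(TPM + 1).

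Against CD males, which share the HFD+E2 group with that comparison, Spon1 was at 1.01 ± 0.16 (SE) and Smoc1 at 1.47 ± 0.22 (SE) on the log2 scale. For these genes the log2 CPM of the 2 groups did not overlap, as for 0.602% of all genes in this direction. For Smoc1 the gap was small, from 1.734 in CD male 4 to 1.758 in HFD+E2 male 2. In CPM without TMM normalization the same libraries were in the reverse order, at 3.26 and 3.14. In TPM, too, the lowest HFD+E2 male had less Smoc1 than the highest CD male. Thbs1 was at -0.27 ± 0.23 (SE) and Thbs2 at -0.41 ± 0.14 (SE). In HFD males against CD males, the study's question about diet in males, Thbs1 was at -0.79 ± 0.23 (SE), Thbs2 at -0.20 ± 0.17 (SE), Spon1 at -0.27 ± 0.16 (SE) and Smoc1 at 0.13 ± 0.26 (SE). Without HFD males 2 and 4 these values were -0.82 ± 0.27 for Thbs1, -0.31 ± 0.14 for Thbs2, -0.28 ± 0.19 for Spon1 and 0.08 ± 0.29 (SE) for Smoc1. Thbs1 was thus the gene of the 4 that differed most with diet in males, and it lay between the 2 vehicle groups with E2. The study, from the same data, names Thbs1 among genes lowered by HFD and raised by E2 in males.

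Against HFD females, Smoc1 was at 1.42 ± 0.26 (SE) in HFD+E2 males, whereas Spon1 was at 0.39 ± 0.28 (SE). The Spon1 value changed without HFD females 1, 3, 4 and 5, which left HFD females 2 and 6. It was then 1.16 ± 0.26 (SE), and Smoc1 was at 1.54 ± 0.35 (SE). Likewise Spon1 was at 0.89 ± 0.29 (SE) in HFD females against HFD males, and at 0.12 ± 0.31 (SE) without the 6 libraries that hold squamous genes. For Thbs2 the same comparison gave 0.12 ± 0.31 (SE) and -0.75 ± 0.20 (SE), and in HFD+E2 males against HFD females -0.33 ± 0.29 (SE) and 0.63 ± 0.21 (SE). Smoc1 did not differ from HFD males in HFD females by more than its error (-0.08 ± 0.30, SE), and the part of squamous tissue in any of these values was not tested.

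**Figure D2:**
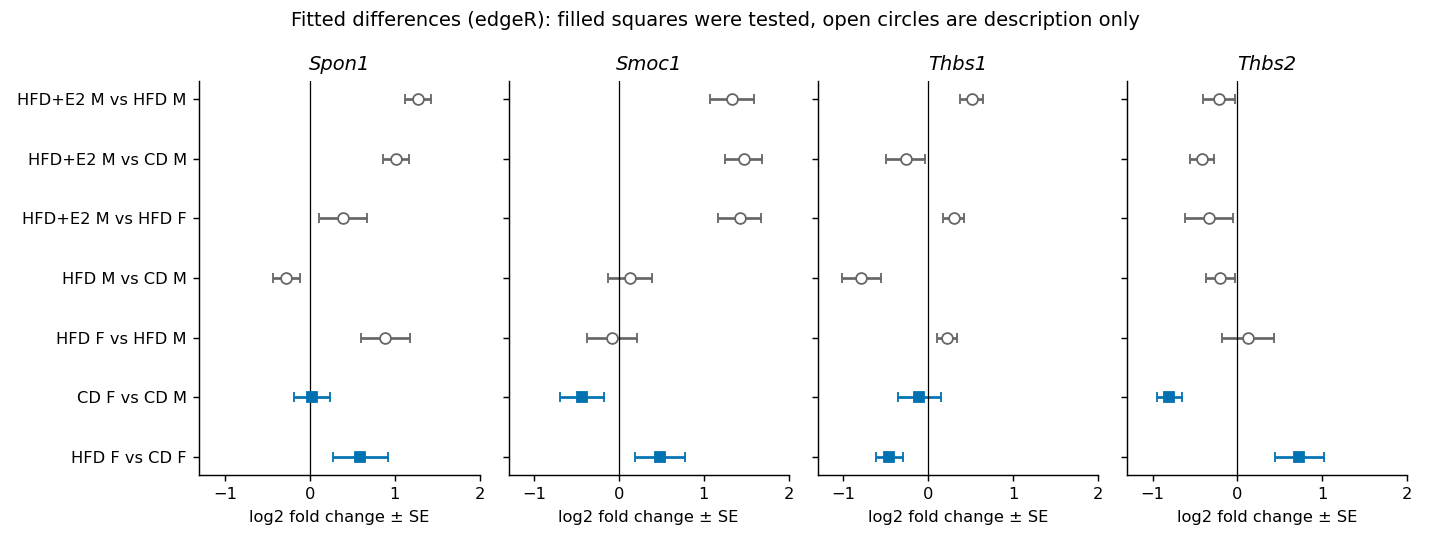
Fitted log2 fold change of each gene (horizontal axis, ± SE) in 7 comparisons (vertical axis) with 6 animals per group, as filled squares where the gene was tested and open circles where it is a description. Spon1 and Smoc1 lie at 1.01 or more in HFD+E2 males against both male groups, and Thbs2 lies at -0.80 in CD females against CD males.

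The comparison of the sexes on CD shares no animals with the one that chose the genes and was tested. It does share the CD females with the diet comparison in which the study lists Thbs2 as regulated by HFD. The genes were also picked with earlier results of these data known, so a call of Thbs2 is not separate evidence. Thbs2 was lower in females, by -0.80 ± 0.15 (SE) on the log2 scale with an adjusted p of 0.00719 (edgeR), and it was the single gene of the 4 past either threshold. Of 14922 genes, 2.14% were lower and 0.777% higher at the adjusted threshold, and 6.21% lower and 2.94% higher at the threshold of the study. Smoc1 was at -0.43 ± 0.25 (SE, adjusted p = 0.471), Thbs1 at -0.10 ± 0.26 (SE, adjusted p = 0.902) and Spon1 at 0.03 ± 0.21 (SE, adjusted p = 0.969) in the same edgeR fit. For Spon1 the difference was below its standard error in this fit.

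Smooth muscle genes were lower in the same females. Their summed level was 2538 to 3939 TPM in CD females and 3999 to 6673 TPM in CD males, without overlap, and all 10 listed genes passed the threshold of the study downwards (6 of 10 with an adjusted p under 0.05). The sum of the 10 fibroblast genes was 236.9 to 527.9 TPM in CD females and 428.9 to 762.5 TPM in CD males. With the smooth muscle score in the fit, Thbs2 was at -0.57 ± 0.22 (SE, adjusted p = 0.186, edgeR), and with the fibroblast score at -0.56 ± 0.12 (SE, adjusted p = 0.057, edgeR). With that smooth muscle score, Spon1 was at 0.55 ± 0.28 (SE, adjusted p = 0.294, edgeR) and Thbs1 at 0.35 ± 0.46 (SE, adjusted p = 0.726, edgeR), so that the values of these genes moved upwards as well. With 1 spread estimated over all 30 libraries, its difference of -0.80 had an adjusted p of 0.0842 (edgeR). In whole tissue, fewer cells of a type and less RNA per cell cannot be told apart.

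HFD against CD in females was tested too, and shares the CD females with the comparison of the sexes. The study lists Thbs2 among the genes regulated by HFD in females from the same data, so a call of Thbs2 here is not separate evidence. No gene of the 4 passed the adjusted threshold, which 0.0199% of 15061 genes did with edgeR. At the threshold of the study, passed by 2.95% of genes upwards and 0.724% downwards, Thbs1 was lower at -0.46 ± 0.16 (SE, adjusted p = 0.598, edgeR) and Thbs2 higher at 0.73 ± 0.29 (SE, adjusted p = 0.735, edgeR). Spon1 was at 0.59 ± 0.32 (SE, adjusted p = 0.965, edgeR) and Smoc1 at 0.49 ± 0.29 (SE, adjusted p = 0.999, edgeR). Without HFD females 1, 3, 4 and 5, only HFD females 2 and 6 were left on HFD. The values of Thbs2 and Spon1 then turned to -0.24 ± 0.21 and -0.17 ± 0.34 (SE). Thbs1 was at -0.67 ± 0.26 (SE) in that fit, so its direction was the same.

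**Figure D3:**
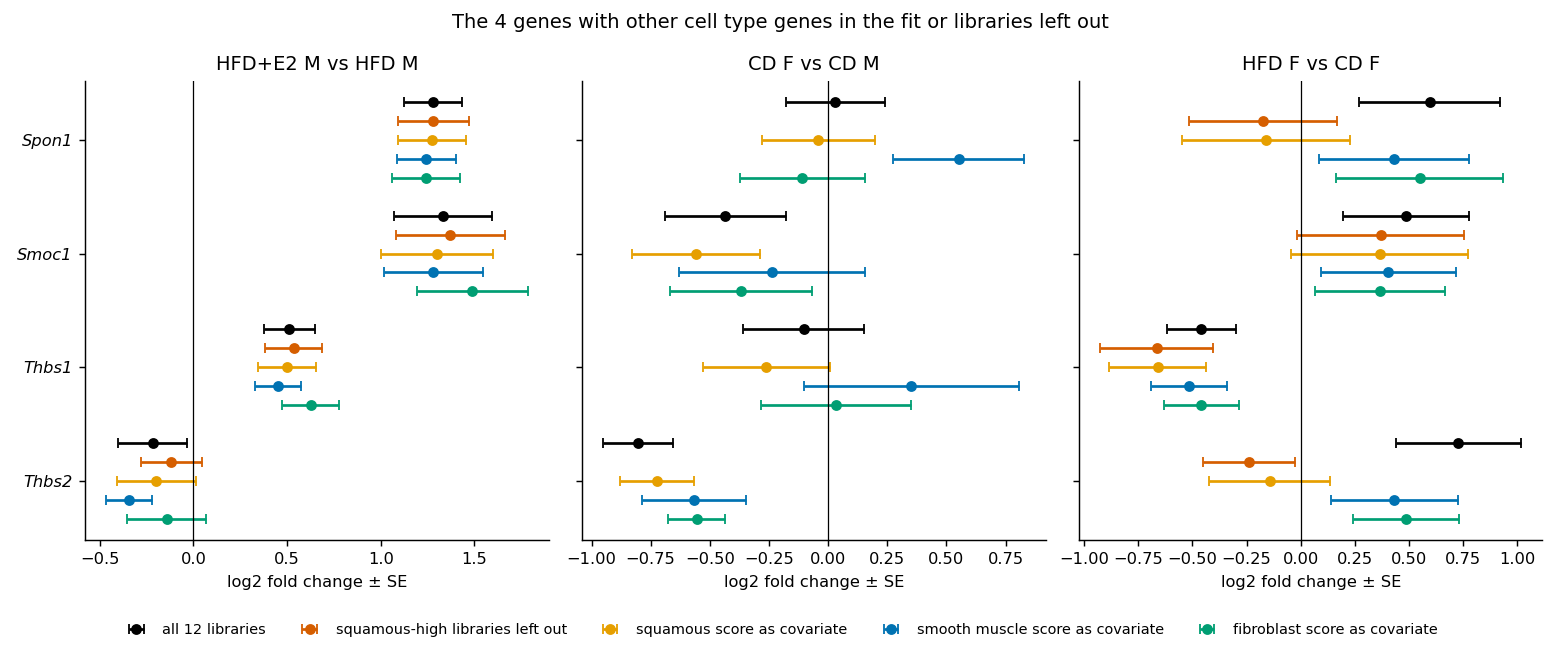
Fitted log2 fold change (horizontal axis, ± SE) of each gene in 3 comparisons with all 12 libraries, without the libraries that hold squamous genes (not applicable to the CD groups) and with a cell type score as covariate. In HFD+E2 against HFD males Spon1 and Smoc1 stay at 1.24 or more, whereas Spon1 and Thbs2 lie below 0 in HFD against CD females in both squamous settings.

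The relatives of the 4 genes were followed in the same fits. Thbs3 and Thbs4 are the relatives that could be fitted in the thrombospondin family, and neither passed a threshold in HFD+E2 against HFD males, where the median log2 fold change of these genes was 0.31. Of the 6 other SPARC family genes fitted, 0 passed the threshold of the study, 0 had an unadjusted p under 0.05 and 0 passed with DESeq2, and their median was 0.04. The median of all genes was 0.00 in this fit. Among 11 other spondins and thrombospondin repeat proteins, Papln, which encodes papilin of basement membranes, was at 0.99 ± 0.39 (SE) and Spon2, another spondin, at 0.66 ± 0.27 (SE). These 2 genes passed the threshold of the study upwards and 0 downwards, without passing it after adjustment (adjusted p = 0.461 for each, edgeR).

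Structural matrix genes were described as well. Of 14 collagen and matrix genes, 4 passed the threshold of the study upwards and 0 downwards, with a median of 0.37 over the list. They were Eln, the elastin gene, at 1.09 ± 0.30 (SE), Col6a3, a collagen VI chain, at 0.54 ± 0.15 (SE), Fn1, the fibronectin gene, at 0.50 ± 0.13 (SE) and Bgn, the proteoglycan biglycan, at 0.40 ± 0.13 (SE). Among 15 other matricellular genes, the fibulin gene Fbln1 (0.43 ± 0.17, SE) and the tenascin gene Tnxb (0.42 ± 0.19, SE) passed upwards and the tenascin gene Tnr (-0.57 ± 0.24, SE) downwards. Over the 189 genes of all lists that were fitted, 22 (11.6%) passed the threshold of the study, against 5.87% of all genes (2.63% upwards), and 31 an unadjusted p under 0.05. Without HFD males 2 and 4, 20 of 191 list genes (10.5%) passed it, against 3.45% of all genes, and of the 14 collagen and matrix genes 4 passed upwards and 0 downwards, with a median of 0.38. After adjustment 0 passed with edgeR, and 0 in any list with DESeq2.

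Over the receptors, pathways and response genes that were followed, 4 of 65 genes (6.15%) passed the threshold of the study with E2, close to the 5.87% of all genes, and 5 of 65 without HFD males 2 and 4. Of 16 receptors, Itgb3, the β3 integrin subunit that binds thrombospondins, was the single one past the threshold of the study (0.45 ± 0.16, SE), and the median was 0.00. Of 15 BMP and TGF-β ligands and receptors, 0 passed it, with an unadjusted p under 0.05 in 1 gene each way. Of 12 response genes 2 passed it upwards, among them Pmepa1 (0.53 ± 0.20, SE), a known TGF-β target. Of 10 steroid receptor and estrogen response genes, 0 passed it and 0 had an unadjusted p under 0.05, and of 12 immediate early genes only Fos did, at -0.69 ± 0.32 (SE).

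Of the cell type genes 9 of 76 (11.8%) passed the threshold of the study in the same comparison, against 5.87% of all genes, and 8 of 77 without HFD males 2 and 4. Their part in the values above was not tested beyond the smooth muscle, fibroblast and squamous scores. Of 10 fibroblast genes 0 passed the threshold of the study and 0 an unadjusted p under 0.05, and of 10 smooth muscle genes Lmod1 passed it (0.47 ± 0.19, SE). The summed smooth muscle level was 3509 to 5838 TPM in HFD+E2 males and 3833 to 6090 TPM in HFD males. Of 8 macrophage genes, C1qa (0.74 ± 0.29, SE) and C1qb (0.65 ± 0.22, SE) passed it upwards, with a list median of 0.29. Of 8 genes of blood endothelium, Vwf (0.45 ± 0.18, SE) passed it upwards, although the list median was -0.12. Of 6 fat cell genes, Cfd (1.73 ± 0.47, SE) passed it upwards, with a list median of 0.31. Of 3 platelet genes that could be fitted 0 passed, with 0 at an unadjusted p under 0.05. Of the remaining lists, Muc2 passed it upwards (0.52 ± 0.16, SE), and Slc26a3 (-0.57 ± 0.19, SE), Elavl4 (-0.51 ± 0.20, SE) and Krt14 (-2.92 ± 1.21, SE) downwards.

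In CD females against CD males, Thbs2 was lower together with most of the listed matrix genes. Of the 14 collagen and matrix genes 13 were lower at the threshold of the study and 8 after adjustment, among them the cross-linking enzyme Lox at -1.18 ± 0.15 (SE, adjusted p = 0.000439, edgeR) and Col6a3 at -0.72 ± 0.10 (SE, adjusted p = 0.00116, edgeR). Col3a1 (-0.63 ± 0.10, SE) and Col1a2 (-0.61 ± 0.10, SE), chains of fibrillar collagens, were lower as well. Of 15 other matricellular genes 7 were lower, 5 of them after adjustment, with Tnxb at -0.65 ± 0.10 (SE), Fbln2 at -0.80 ± 0.14 (SE), Matn2 at -0.65 ± 0.14 (SE) and Wisp1 at -0.80 ± 0.18 (SE). Thbs3 was lower at -0.70 ± 0.13 (SE, adjusted p = 0.0081, edgeR), while Thbs4 did not pass. The list medians were -0.62 for collagens and matrix and -0.35 for the matricellular genes, against 0.01 for all genes. Over all lists, 71 of 189 genes passed the threshold of the study in either direction, and 37 passed after adjustment. Of all genes, 6.21% were lower and 2.94% higher at the threshold of the study, and 2.14% and 0.777% after adjustment.

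Of the 6 other SPARC family genes fitted, 4 were lower in CD females, while Smoc2, the closest relative of Smoc1, was at 0.03 ± 0.11 (SE) and Spock3 at -0.35 ± 0.17 (SE) without passing. Sparc (-0.67 ± 0.10, SE), Fstl1 (-0.60 ± 0.12, SE) and Sparcl1 (-0.57 ± 0.15, SE) were lower after adjustment with edgeR and Spock2 (-0.56 ± 0.17, SE) at the threshold of the study. Of 11 spondins and repeat proteins 3 were lower, with Rspo3, a Wnt amplifier, at -0.68 ± 0.16 (SE) after adjustment and Adamtsl1 (-0.43 ± 0.12, SE) and Thsd1 (-0.77 ± 0.25, SE) without it. Of the receptors, Cd36 (-0.62 ± 0.16, SE) and Cacna2d1 (-0.40 ± 0.10, SE) were lower and Sdc1 (0.42 ± 0.08, SE) and Stim1 (0.32 ± 0.08, SE) higher after adjustment. Of 16 BMP and TGF-β ligands and receptors 5 were lower, of which Tgfbr3 (-0.58 ± 0.13, SE) passed after adjustment. Of 12 response genes, the BMP antagonist Grem1 (-0.87 ± 0.10, SE) and Id4 (-1.12 ± 0.17, SE) were lower after adjustment.

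In HFD against CD females, 5 of the 14 collagen and matrix genes were higher at the threshold of the study, as Thbs2 was, and 0 after adjustment with edgeR (10 had an unadjusted p under 0.05, and 1 passed with DESeq2). Col3a1 was at 0.40 ± 0.10 (SE), Col1a2 at 0.60 ± 0.19 (SE), Col5a1 at 0.43 ± 0.14 (SE) and Col6a1 at 0.41 ± 0.15 (SE). Of 11 steroid receptor and estrogen response genes 5 were higher at that threshold, among them the receptor genes Pgr (3.07 ± 0.99, SE) and Esr1 (0.75 ± 0.29, SE) and the target Greb1 (0.60 ± 0.23, SE). The squamous genes Krt14 (6.99 ± 1.63, SE) and Sbsn (3.01 ± 0.86, SE) were higher in the same animals. Matn2 (0.51 ± 0.21, SE), Cd36 (0.60 ± 0.17, SE), Bmp7 (0.69 ± 0.16, SE) and Grem1 (0.47 ± 0.14, SE) passed it upwards, and Nr4a1, Fosb and Atf3, genes of the immediate early response, downwards. Over all lists 21 of 191 genes passed it, against 2.95% of all genes upwards and 0.724% downwards. Without HFD females 1, 3, 4 and 5, only HFD females 2 and 6 were left, so the power to pass a threshold was lower. In that fit 8 of 193 list genes (4.15%) passed the threshold of the study, against 2.36% of all genes. Of the collagen and matrix genes 0 passed it, and 0 of the steroid receptor and estrogen response genes (edgeR, with an unadjusted p under 0.05 in 1 and 0 genes).

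**Figure D4:**
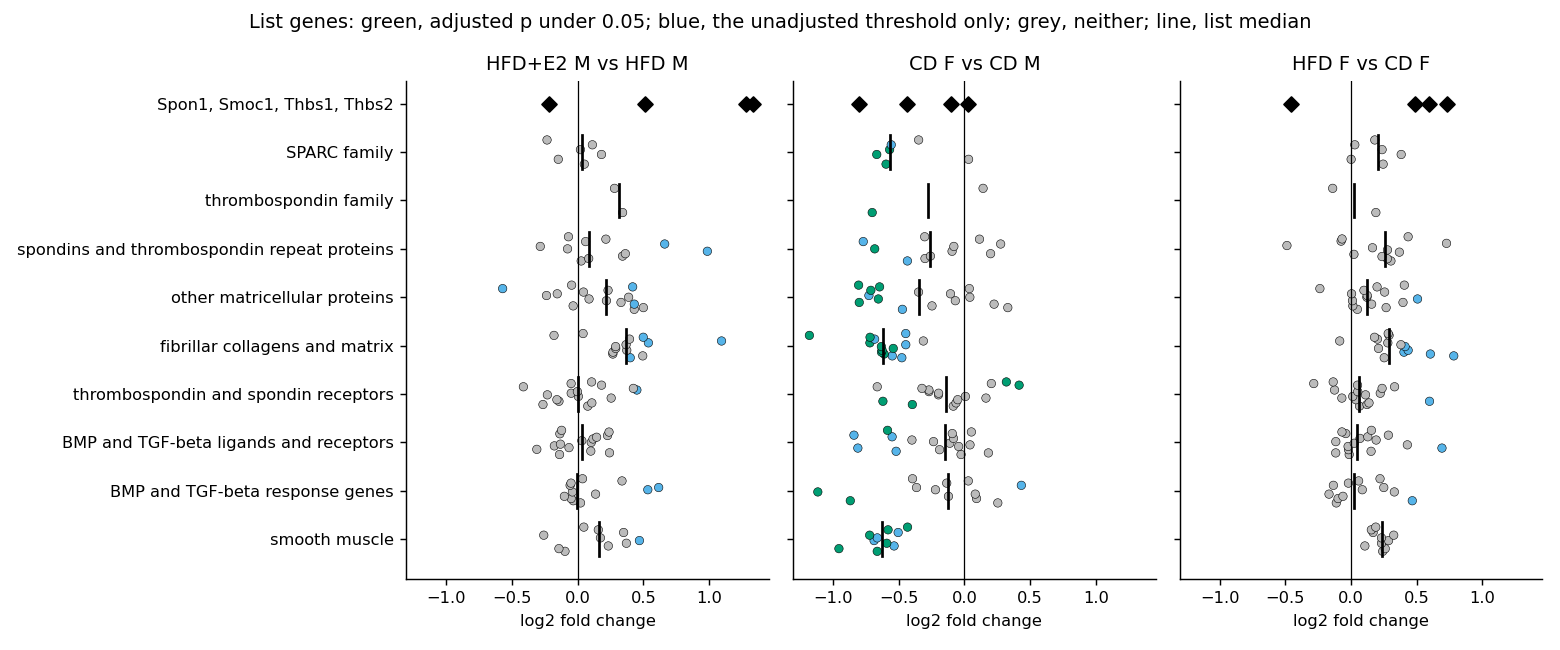
Log2 fold change (horizontal axis) of the genes of 9 lists (vertical axis, a point per gene and a line for the list median) in 3 comparisons, with the 4 genes as diamonds on top. In HFD+E2 against HFD males Spon1 and Smoc1, picked with this comparison in view, lie to the right of every point of these 9 lists. In CD females against CD males the collagen, SPARC family and smooth muscle medians lie below -0.5.

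Over the 30 libraries the 4 genes did not form a single group. Correlations are of log2 CPM, across libraries that share the 5 group means and differ in depth, and are a description. Spon1 and Smoc1 had a Pearson's r of 0.61 (Spearman's rho 0.53, and r = 0.52 in 28 libraries without the pair farthest from the Smoc1 median). It was 0.23 over the 24 libraries without HFD+E2 males and 0.28 for the deviations from the group means. Thbs1 and Thbs2 had an r of 0.12 over the libraries and 0.33 within groups.

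Thbs2 was the gene with the tightest partner. Matn2, which encodes the matrix adaptor matrilin-2, had an r of 0.92 with it over 13713 genes compared (rho 0.898), 0.895 in 28 libraries without those farthest from the Matn2 median and 0.93 for the deviations from group means. Plxna4, Eya1, Camk2g and Frmd6 followed, with r from 0.79 to 0.81. For the deviations from group means Mgp, Fibin, Tagln and Adamtsl3 followed, with r from 0.77 to 0.83. The smooth muscle score had an r of 0.66 with Thbs2, and the squamous score one of 0.43, or 0.305 without the pair farthest from its median.

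The other genes had looser partners. For Spon1 they were Map4, Sdk1, Plekhm1, Ston2 and Zadh2, with r from 0.68 to 0.75, and for the deviations Gm14966, Emb, Slc39a6, Casc3 and Wdfy3, with r from 0.65 to 0.67. For Smoc1 they were Ptprh, Iyd, Polr2a, Diap1 and Cilp, with r from 0.61 to 0.73, and for the deviations Kcnn3, Ift88, Gm38211, Bace1 and Ppil6, with r from 0.62 to 0.72. For Thbs1 they were Cpm, Rnf25, 2310033P09Rik, Tppp3 and Nolc1, with r from 0.61 to 0.70, and for the deviations Prkab2, Rnf25, Arhgap29, Rassf8 and Mcts2, with r from 0.62 to 0.67.

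**Figure D5:**
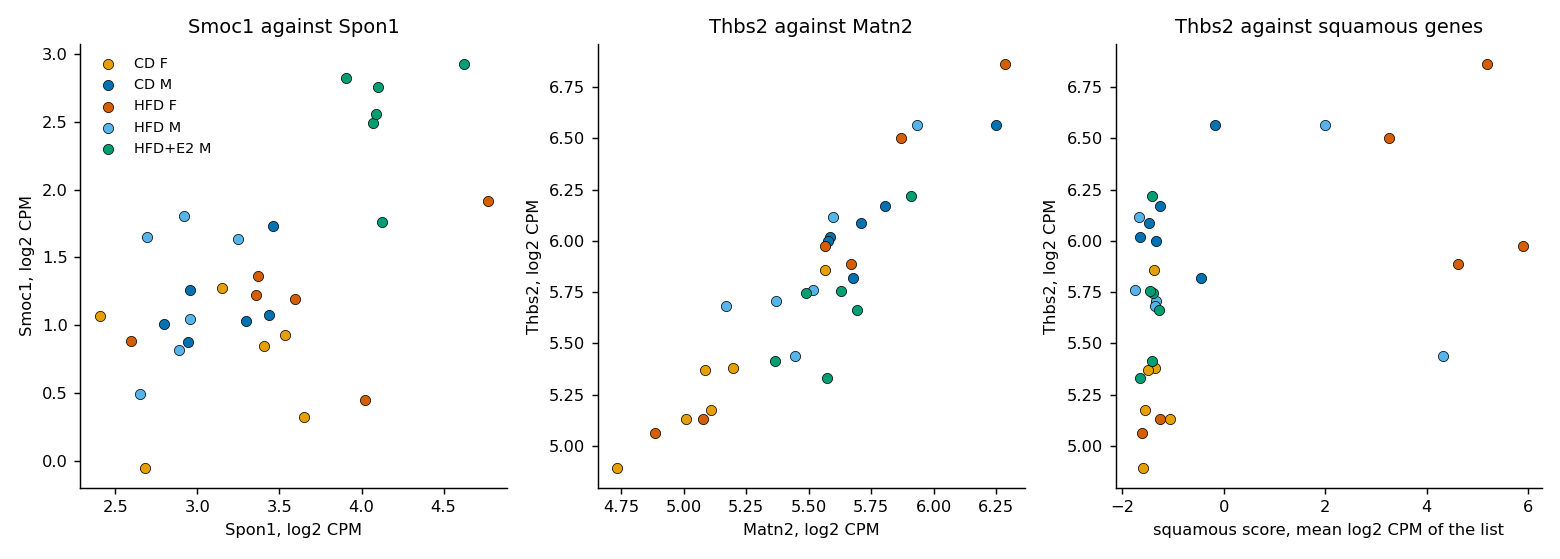
Log2 CPM of Smoc1 against Spon1, of Thbs2 against Matn2, and of Thbs2 against the squamous score (mean log2 CPM of the listed genes), with a point per library coloured by group. In the first panel 5 HFD+E2 males stand alone at the top, in the second all groups fall on a common line (r = 0.92), and in the third 6 libraries lie above a score of 0.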

How the data were processed

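Colon RNA of 30 mice in 5 groups of 6 was sequenced after removal of ribosomal RNA. Per the labels, reads were demultiplexed with bcl2fastq 2.19.1.403 and trimmed with Trim Galore, and the authors mapped them to GRCm38 (mm10) with STAR. The deposited counts are whole reads per gene from featureCounts, without normalization. The deposited TPM values were made by the authors with StringTie.

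Counts were fitted with edgeR 4.0.16 in R 4.3.3 (filterByExpr, TMM normalization, robust quasi-likelihood F-test), each comparison on its 12 libraries, with Benjamini-Hochberg adjustment over all genes. Standard errors follow from the F statistic, and log2 CPM used TMM normalization over all libraries and a prior count of 2. The threshold of the study is read as an unadjusted p under 0.05 together with an absolute log2 fold change above 0.4. Scores are mean log2 CPM of listed genes over 0.1 CPM, and Thbs2 and the other genes of interest were left out of the counts for lists. Alternatives used DESeq2 1.42.0 and limma 3.58.1. Sequences and exons came from GENCODE M21.

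The members and lists were chosen with earlier results of these data known. Named are the 4 genes, up to 4 genes per list by lowest p that passed a threshold, and the 5 genes most correlated with each of the 4 among genes with a mean of at least 1 TPM. Some list genes that the rule would name are not reported here. Animals are the replicates. On simulated counts, 200 genes above a minimum mean count were changed by a factor of 2. Of these, edgeR recovered 143 for HFD+E2 against HFD males (15043 genes) and 184 for CD females against CD males (14898 genes). For HFD against CD females it recovered 153 of the 198 that passed the filter (15171 genes). Unchanged genes that were called numbered 8, 11 and 8 in the same order. Replicate spread includes counting error, which was largest for Smoc1.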

Additional observations from a re-analysis of the deposited data

Results flagged for a closer look

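HFD female 1 stood apart in 2 of the 20 combinations of gene and group, by Dixon's test at 95% (critical value 0.625 for 6 animals), where chance gives about 1 in 20. Spon1 was at 7.28 TPM in this library, with a gap to the next animal of 0.653 of the group's range. Smoc1 was at 1.55 TPM in the same library, with a gap of 0.742 of the range. The library also held squamous genes, and without it Spon1 was at 0.27 on the log2 scale in HFD against CD females.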

How the results depend on the processing

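Of 374 values of the 4 genes recomputed under an alternative, 339 kept their side of the threshold where they were tested or moved by less than 1 SD where they were not. In 22 of the 374 the sign changed, in 16 by less than 1 SD and in 6 by more, which were Spon1 and Thbs2 in HFD against CD females and Thbs2 in both other comparisons with HFD females. Leaving out the libraries with squamous genes was chosen after seeing the data, and it left only replicates 2 and 6 of the HFD females. Unless a value shows it, the cause of a change was not tested. In HFD+E2 against HFD males, Spon1 was at 0.97 on log2(TPM + 0.1) with limma and at 0.73 on log2(TPM + 1), where Smoc1 was at 0.69. Thbs1 was at 0.32 and 0.30 on these scales. A pseudocount shrinks differences of low genes, which Thbs1 is not, and its part in these values was not tested. On these scales the median of all genes was -0.16 and -0.11. On log2(TPM + 0.1) that median was -0.10 in CD females against CD males, -0.14 in HFD+E2 against CD males and -0.13 in HFD+E2 males against HFD females. In CD females against CD males, Thbs2 missed the adjusted threshold at -0.80 in a fit of all 30 libraries, at -0.57 with the smooth muscle score and at -0.56 with the fibroblast score. In HFD against CD females, Spon1 was at 0.59 in the fit of all 30 libraries, 0.73 on log2(TPM + 0.1) and 0.54 on log2(TPM + 1). It turned to -0.16 with the squamous score and to -0.17 without HFD females 1, 3, 4 and 5. Thbs2 turned to -0.14 and -0.24 in the same settings and lost the threshold of the study at 0.43 with the smooth muscle score, 0.49 with the fibroblast score and 0.62 with the replicate block. Thbs1 lost it at -0.28 and -0.27 on the TPM scales. Spon1 was at -0.017 and -0.010 on the TPM scales in HFD against CD males. On log2(TPM + 1), Spon1 was at 0.72 and Smoc1 at 0.76 against CD males, and Smoc1 at 0.76 against HFD females, in HFD+E2 males. Without the libraries with squamous genes, Spon1 was at 0.12 and Thbs2 at -0.75 in HFD females against HFD males, and Spon1 at 1.16 and Thbs2 at 0.63 in HFD+E2 males against HFD females.

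With single libraries left out, HFD+E2 against HFD males gave 1.16 to 1.36 for Spon1, 1.198 to 1.46 for Smoc1, 0.43 to 0.58 for Thbs1 and -0.33 to -0.05 for Thbs2. CD females against CD males gave -0.08 to 0.15 for Spon1, -0.57 to -0.29 for Smoc1, -0.23 to 0.08 for Thbs1 and -0.94 to -0.70 for Thbs2, which stayed past the adjusted threshold each time. HFD against CD females gave 0.27 to 0.75 for Spon1, 0.28 to 0.61 for Smoc1, -0.54 to -0.34 for Thbs1 and 0.49 to 0.86 for Thbs2. There Thbs2 lost the threshold of the study without HFD female 1 or 5 or CD female 1 or 5, and Thbs1 without CD female 2 or 5, while Spon1 gained it without HFD female 2. Smoc1 gained it in CD females against CD males without CD female 6.

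The number of genes past the threshold of the study was 881 (395 up, 486 down) in HFD+E2 against HFD males. It was 1805 without a filter, 504 with the squamous score, 1853 (247 up, 1606 down) on log2(TPM + 0.1), 1442 (189 up, 1253 down) on log2(TPM + 1) and 530 without HFD males 2 and 4. With single libraries left out it ran from 557 (without HFD male 2) to 1497 (without HFD+E2 male 1), with 1391 without HFD male 5. After adjustment 1 gene passed, against 38 with DESeq2, 3 without a filter, 7 with the replicate block, 0 in the fit of all 30 libraries, on both TPM scales and without HFD males 2 and 4, and 1 to 2 with single libraries left out (2 without HFD male 6). In CD females against CD males the number was 1366 (439 up, 927 down), against 2253 without a filter and 2073 (1106 up, 967 down) with the smooth muscle score, and 2043 (372 up, 1671 down) on log2(TPM + 0.1) and 1405 (256 up, 1149 down) on log2(TPM + 1), and 1223 to 1684 with single libraries left out. After adjustment it was 435, against 774 with DESeq2, 941 with the replicate block, 155 with the smooth muscle score, 72 with the fibroblast score, 203 with the squamous score, 138 and 135 on the TPM scales and 244 to 691 with single libraries left out. It was lower by over 1.5 times without CD female 6 (274) or CD male 2 (286), 3 (244), 4 (278) or 5 (273), and higher without CD male 1 (691). In HFD against CD females the number was 553 (444 up, 109 down), against 1018 with DESeq2, 1496 without a filter, 350 (181 up, 169 down) with the squamous score, 373 (189 up, 184 down) without HFD females 1, 3, 4 and 5, 1162 and 841 on the TPM scales, and 481 to 827 with single libraries left out. After adjustment it was 3, against 214 with DESeq2, 0 with at least 10 counts in every library, 86 in the fit of all 30 libraries, 12 with the replicate block, 1 with the squamous score, 1 on each TPM scale, and 1 to 11 with single libraries left out (11 without HFD female 2, 10 without CD female 4).

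The replicate numbers are not stated to mark a shared litter or day. The correlation of same-numbered samples' deviations was over 0.1 in 3 of 6 pairs of HFD+E2 and HFD males, 5 of 6 in the CD groups and 3 of 6 in females, and samples correlated best with their own number in 3, 3 and 0 cases, so the numbers were not taken as pairs. Smoc1 counts of 8 to 129 per library limit its precision.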
